A study of Caenorhabditis elegans with 15 samples.

Results

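Wild-type Caenorhabditis elegans raised on water of Lake Stößensee sampled in October were compared directly with worms raised on water of the same lake sampled in August. The comparison was made of the 3 October arrays and the 3 August arrays, which are 6 of the 15 arrays of the study, and arrays of the same replicate number were treated as a pair. All 22548 probe sets other than the array's own controls entered it, and the 13529 with enough signal were tested. The 5 groups of 3 biological replicates were worms exposed to October lake water, worms exposed to August lake water, worms exposed to cultured Microcystis aeruginosa, a bloom-forming cyanobacterium, worms given Z-medium, and worms given plain water. Both lake waters were filtered (and lyophilised) and put into the agar and the bacterial lawn at 200% of their original AOBr content, and the culture at 40% of its own. AOBr, in its usual reading, is adsorbable organic bromine, a sum measure of brominated organic compounds. Z-medium and water served as controls, and the labels do not say whether they were filtered and dried alike. All worms were of the N2 strain, were kept at 20 °C on NGM agar with OP50 bacteria, were exposed for their whole life and were harvested as day 1 adults. Each lake water was dosed against its own original content, and the labels do not give the absolute contents of the 2 months. They also do not say how many water samples stand behind a month, so whether the spread between arrays includes that between water samples is not known.

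Lake water carries many dissolved organic compounds, and worms meet them through the food and the gut wall. Cytochrome P450 enzymes are membrane-bound haem proteins that oxidise hydrophobic compounds, those taken up from outside as well as the body's own lipids and hormones, and nematodes have a large family of them. UDP-glucuronosyltransferases and glutathione S-transferases then attach polar groups, and ABC transporters export the products. Fatty acid desaturases put double bonds into fatty acids. The stearoyl-CoA desaturases fat-6 and fat-7 of C. elegans make oleic acid from stearic acid, largely in the gut and epidermis, and fat-7 transcript levels are known to follow diet, fasting and temperature.

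Transcript levels are given as MAS5 signal, a linear intensity in arbitrary units that had been scaled to 1 common level on every array. The median signal of the 6 lake arrays lay between 99.5 and 111.8. Log2 signals of October arrays correlated with those of August arrays at r of 0.979 to 0.990 across probe sets, within October at 0.983 to 0.990 and within August at 0.9754 to 0.987. These 3 ranges overlapped. The 3'/5' ratio of the GAPDH control probes, a sign of RNA integrity, was 1.05, 1.2 and 1.18 on the October arrays and 1.2, 1.14 and 1.05 on the August arrays. That of the actin control probes was higher, at 1.85, 1.77 and 1.77 for October and 1.68, 1.98 and 1.75 for August. The replicate 1 arrays of both lake groups stood apart from replicates 2 and 3 on the first principal component of all 15 arrays, which held 38% of the variance, at -21.8 for October and -26.2 for August, against -0.20 and 1.12 for the other October arrays and 4.18 and 13.8 for the other August arrays. Replicate 1 of the water and Z-medium arrays lay with them, at -27.7 and -28.9, whereas that of the culture lay at 11.96, below the other culture arrays at 26.7 and 36.1.

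Of 13529 probe sets, 2 differed between October and August worms, and both were lower in October. They were cyp-33A1, a cytochrome P450, and fat-7. These 2 probe sets are 0.0148% of those tested, and 0 probe sets (0%) were higher in October. The test was limma on log2 signal with replicate number as a block, with Benjamini-Hochberg adjustment over all 13529 probe sets and a threshold of 0.05. At an unadjusted p under 0.05 there were 652 probe sets, 440 higher and 212 lower, where 5% of 13529 is 676. The same fit with no replicate block gave 350 at an unadjusted p under 0.05, and again 2 after adjustment.

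The precision allowed most larger differences to be bounded. The 95% interval of the log2 change had a median half-width of 0.27, and for 13198 of the 13529 probe sets (97.6%) the whole interval lay within 2-fold in either direction. The median size of the log2 change was 0.09, and 95% of probe sets had a size of at most 0.35. Estimates of 2-fold or more were found for 8 probe sets, 5 positive and 3 negative, and cyp-33A1 was the only one of these that passed the test. Probe sets that were not tested because of low signal numbered 9019 and are in none of these counts.

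**Figure D1:**
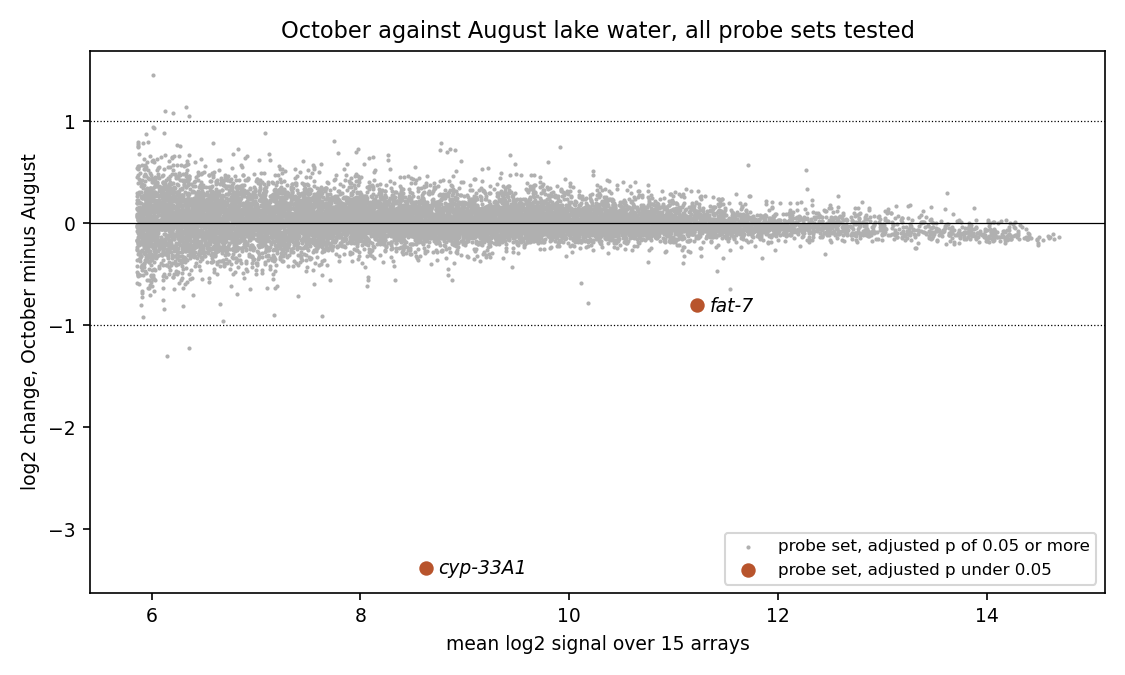
Each point is 1 of the 13529 probe sets tested, with its mean log2 signal over 15 arrays on the x axis and its log2 change, October minus August, on the y axis; dotted lines mark 2-fold. The 2 probe sets past the test, cyp-33A1 at -3.38 and fat-7 at -0.81, are filled, and the cloud bends slightly below 0 at the bright end.

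cyp-33A1 had signals of 274, 217 and 248 in the October worms and of 2462, 2674 and 2547 in the August worms. All 3 October arrays lay far below all 3 August arrays. Its mean was 246 ± 28.2 in October worms and 2561 ± 107 in August worms (SD, n = 3 each), a 10.4-fold higher level in August. The log2 change was -3.38 ± 0.12 (SE), with a 95% interval of -3.63 to -3.13 and an adjusted p of 1.20e-10 in limma. The pairs gave -3.17, -3.62 and -3.36, so every pair showed a difference of nearly the same size.

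The other groups place the difference. cyp-33A1 read 266, 218 and 227 with the M. aeruginosa culture, 252, 266 and 237 with Z-medium and 234, 290.1 and 252 with water. The October worms were among these 9 arrays, and their log2 difference from water was -0.07 ± 0.12, with an adjusted p of 1.00 in limma. The August worms differed from water by 3.31 ± 0.12, with an adjusted p of 1.65e-10. The lowest August array lay 3.09 log2 units above the highest of the other 12 arrays. In bulk RNA from whole worms, a change in the number of cells that carry a transcript and a change in the transcript per cell cannot be told apart. Only 1 probe set on the array represents cyp-33A1, so there is no second reading of it.

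fat-7 had signals of 2292, 2017 and 2422 in October worms and of 4122, 3479 and 4171 in August worms. The highest October array was below the lowest August array. The means were 2244 ± 207 in October worms and 3924 ± 386 in August worms (SD, n = 3 each), which is 1.75-fold higher in August. The log2 change was -0.81 ± 0.09 (SE), with a 95% interval of -1.0 to -0.62 and an adjusted p of 0.00101 in limma, and the pairs gave -0.85, -0.79 and -0.78. The adjusted p was 0.0446 with no replicate block, and the call was lost, at 0.0843, when all arrays of replicate 2 were left out.

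In the other groups fat-7 read 1653, 1203 and 1237 with the culture, 3172, 2592 and 2697 with Z-medium, and 2454, 2350.1 and 2278 with water. The order of the group means was August, Z-medium, water, October and culture, and of the neighbours in this order only October and water overlapped. Against water the log2 difference was -0.08 ± 0.09 in October worms, with an adjusted p of 1.00, and 0.73 ± 0.09 in August worms, with an adjusted p of 0.00368 in limma. The lowest August array lay only 0.13 log2 units above the highest of the other 12 arrays, which was a Z-medium array. The August level of fat-7 was thus close to the upper end of what the controls showed, while that of cyp-33A1 was far outside it.

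**Figure D2:**
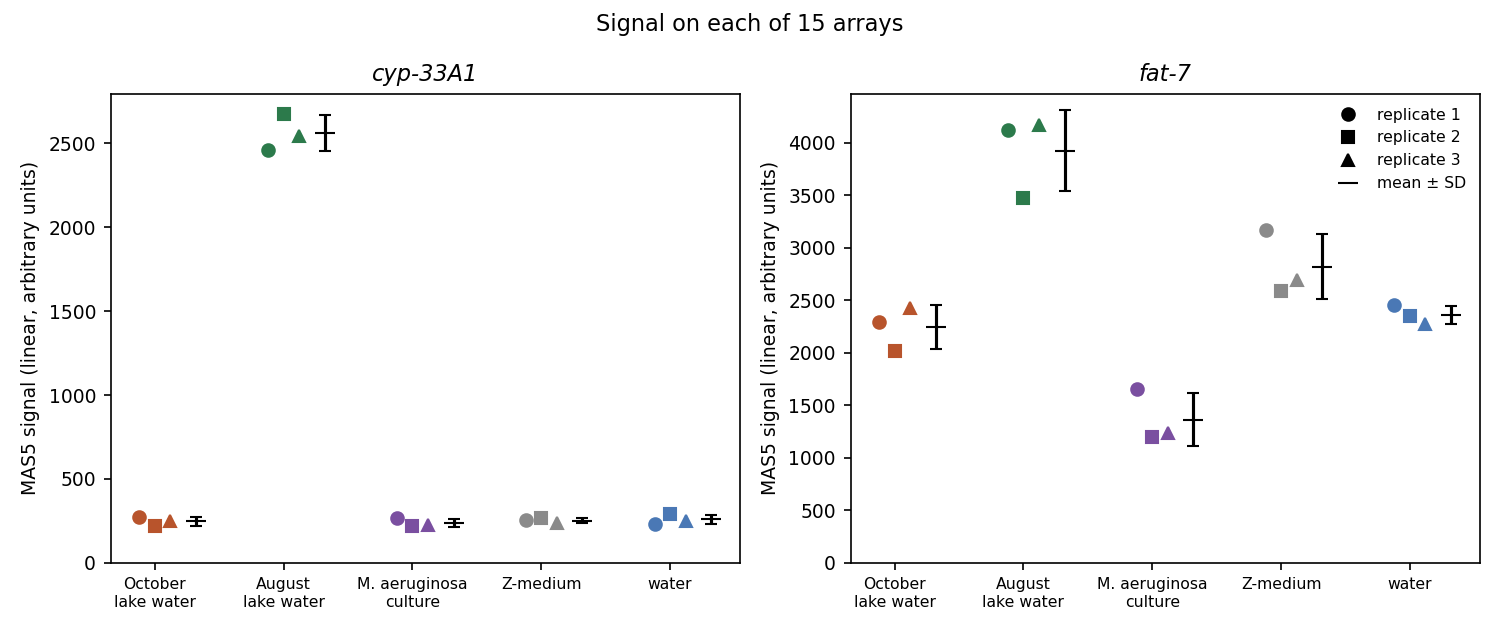
MAS5 signal (linear, arbitrary units) of cyp-33A1 and fat-7 on each of the 15 arrays, by group, with the marker shape giving the replicate number and bars the mean ± SD of 3 arrays. The 3 August arrays of cyp-33A1 lie between 2462 and 2674 and all other arrays between 217 and 290.1, while for fat-7 the groups lie closer together.

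The rest of the P450 family was examined beside cyp-33A1. The array carries 73 P450 genes, of which 36 had enough signal to be tested and 37 did not. Of these 36, 1 was lower past the test, 0 were higher and 35 did not pass. Estimates were positive for 11 of 36, where 51.2% of all 10259 genes tested were positive, and the median log2 change was -0.07 against 0.00 over all genes. Lower signal in October in 3 of 3 pairs was seen for 10 of 36, against 12.8% of all genes, and higher signal in 3 of 3 pairs for 1 of 36, against 12.5%. Leaving out cyp-33A1 gave 35 genes with 11 positive and a median of -0.07. This share of positives is a description of the list, and the shifts were small beside the interval of a single gene.

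Among those 35 genes the estimates ran from -0.48 for cyp-25A1 to 0.50 for cyp-29A4, which are named here as the ends of the range. cyp-25A1 had signals of 69.8, 123 and 94.0 in October worms and of 117, 143 and 130.3 in August worms, with a log2 change of -0.48 ± 0.21 and an adjusted p of 0.982 in limma. The groups overlapped. cyp-13A2 read 60.2, 72.2 and 94.0 in October worms and 92.4, 106 and 98.0 in August worms, and its log2 change was -0.41 ± 0.23 with an adjusted p of 0.982. The other 6 tested members of the cyp-33 subfamily, the closest relatives of cyp-33A1 by name, had estimates between -0.21 and 0.10, and 0 of them passed. For the partners and regulators of P450 genes, a list added after values were seen, 0 of 5 tested passed. The P450 reductase emb-8, which hands electrons to the microsomal enzymes, had a log2 change of -0.02 ± 0.11. The ARNT protein aha-1, the partner of the aryl hydrocarbon receptor, had -0.36 ± 0.18, also not past the test.

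fat-7 was the only fatty acid desaturase that passed. Its close paralog fat-6 had signals of 5203, 4901 and 4634 in October worms and of 4999, 4082 and 4619 in August worms, and a log2 change of 0.11 ± 0.08 (95% interval -0.07 to 0.29). The groups overlapped, and the estimate had the sign opposite to that of fat-7. Cross-hybridisation between the transcripts of fat-6 and fat-7 was not tested. The palmitoyl-CoA desaturase fat-5 had 309, 566 and 459 in October worms and 233, 489 and 485 in August worms, with a log2 change of 0.18 ± 0.14. The polyunsaturated fatty acid desaturases fat-1, fat-2, fat-3 and fat-4 had log2 changes of -0.03 ± 0.07, 0.04 ± 0.09, -0.10 ± 0.09 and -0.01 ± 0.09, and the estimates of fat-1 and fat-4 turned sign in some settings. The list of desaturases, elongases, fatty acid synthase and acyl-CoA synthetases had 37 tested genes of 41 on the array, with 1 lower past the test, 0 higher, 19 positive estimates and a median of 0.00.

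Genes known to act on fat-7 were listed after values were seen, and 0 of 9 passed. The nuclear receptor nhr-49, an activator of fat-7, had 2156, 2207 and 2135 in October worms and 1882, 1919 and 1793 in August worms. Its October arrays were all above its August arrays, and its log2 change was 0.22 ± 0.07 with an adjusted p of 0.982. Such non-overlap, in either direction, was found for 7.55% of all probe sets tested. As nhr-49 had one of the smallest p of its lists, its non-overlap adds no support. It has 2 tested probe sets, of which the brighter is given. The SREBP transcription factor sbp-1 read 236, 295 and 310.3 in October worms and 325, 400.2 and 295 in August worms, with a log2 change of -0.28 ± 0.13 and an adjusted p of 0.982 in limma. The groups overlapped. The nuclear receptor nhr-80 had -0.17 ± 0.27 and the Mediator subunit mdt-15 had -0.02 ± 0.12. Fatty acid oxidation genes had 0 of 36 past the test, 16 positive and a median of -0.03, with 0.32 ± 0.12 for the acyl-CoA dehydrogenase acdh-8. Lipases had 0 of 10 past the test, 7 positive and a median of 0.02, with -0.18 ± 0.13 for the adipose triglyceride lipase atgl-1.

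**Figure D3:**
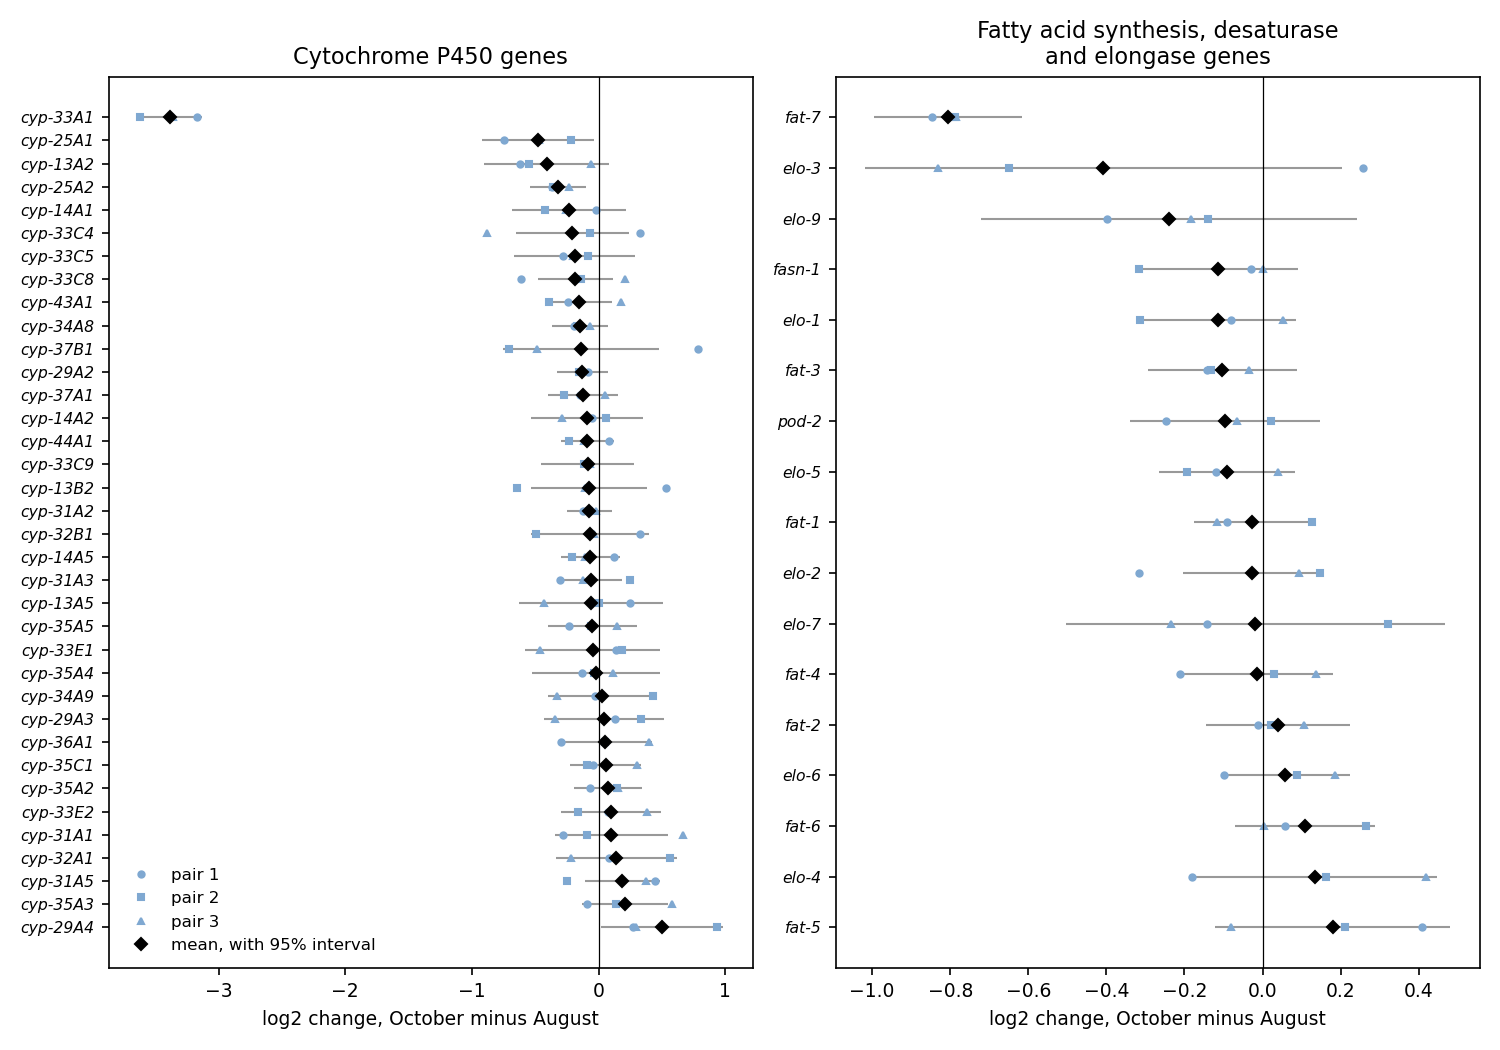
Log2 change, October minus August, of the 36 tested P450 genes (left) and of the fatty acid synthase, desaturase and elongase genes (right); black diamonds give the estimate with its 95% interval, blue symbols the 3 pairs. cyp-33A1 at -3.38 and fat-7 at -0.81 lie apart from the other members of their lists, whose intervals mostly span 0.

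Genes next in rank did not pass the test. The smallest p belonged to the JmjC-domain histone demethylase gene jhdm-1, with signals of 627, 574 and 628 in October worms and 835, 824 and 803 in August worms. The groups did not overlap, and its log2 change was -0.43 ± 0.08 with an adjusted p of 0.184 in limma. The other 2 probe sets of jhdm-1 gave 0.05 ± 0.15 and -0.01 ± 0.09, so the difference was seen on 1 probe set of 3. The actin-binding thymosin gene tth-1 had 288, 412 and 371 in October worms and 492, 499 and 573 in August worms, with a log2 change of -0.56 ± 0.11 and an adjusted p of 0.503. Its October arrays were all below its August arrays, and its second probe set gave 0.01 ± 0.14. Non-overlap of the 3 October and 3 August arrays was found for 1021 probe sets in all, 7.55% of those tested. In genes picked by a small p in these same arrays, non-overlap follows largely from the choice and adds no support.

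On the positive side the smallest p belonged to the cuticle collagen col-180. It read 1348, 825 and 903 in October worms and 1050.2, 505 and 564 in August worms, and replicate 1 was the highest array of both groups. The log2 change of col-180 was 0.58 ± 0.12 with an adjusted p of 0.574, and the pairs gave 0.36, 0.71 and 0.68. The groups overlapped although every pair was positive. The intramembrane protease imp-2 had 5533, 5259.8 and 5568 in October worms and 4518, 3358 and 3643 in August worms, with a log2 change of 0.52 ± 0.11 and an adjusted p of 0.873. The nuclear receptor nhr-97 read 615, 648 and 655 in October worms and 504, 492 and 518 in August worms, with a log2 change of 0.34 ± 0.08 and an adjusted p of 0.952. The alcohol dehydrogenase adh-1 read 1072, 1051 and 1042 in October worms and 811, 784 and 818 in August worms, with a log2 change of 0.39 ± 0.10 and an adjusted p of 0.952. In imp-2, nhr-97 and adh-1 the October arrays were all above the August arrays, but these genes were picked by their small p.

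Some other genes of this rank are given for their known functions, each with an adjusted p of 0.952. The zinc transporter slc-30A5 had a log2 change of 0.70 ± 0.16, the branched-chain keto acid dehydrogenase subunit bckd-1A 0.43 ± 0.10, the mitochondrial processing peptidase subunit mppa-1 0.47 ± 0.12, and the Raptor homolog daf-15, a partner of the TOR kinase, 0.32 ± 0.08. On the negative side the nuclear receptor nhr-2 had -0.91 ± 0.23, the poly(A)-binding protein pab-2 -0.59 ± 0.14, the DNA polymerase epsilon subunit pole-4 -0.38 ± 0.10, and the molting regulator myrf-1 -0.90 ± 0.25. Pairs were unequal for several of these genes, with 0.24, 0.82 and 1.03 for slc-30A5 and 0.54, 0.14 and 0.73 for mppa-1. pab-2 had 1093, 958 and 993 in October worms and 2027, 1047 and 1654 in August worms, and its pair differences were -0.89, -0.13 and -0.74. myrf-1 had 141, 76.5 and 81.9 in October worms and 126, 239.6 and 189 in August worms, and its first pair went the other way, at 0.17. pab-2 passed when replicate 2 was left out (adjusted p = 0.0339 in limma) and when the August array of replicate 2 was left out (0.00110). myrf-1 passed without replicate 1 (0.0448). Of these genes, pab-2 has 4 tested probe sets, slc-30A5 and nhr-2 have 3, and bckd-1A and daf-15 have 2. Only the probe set with the smallest p is given for each, as for imp-2 and nhr-97, which have 2.

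**Figure D4:**
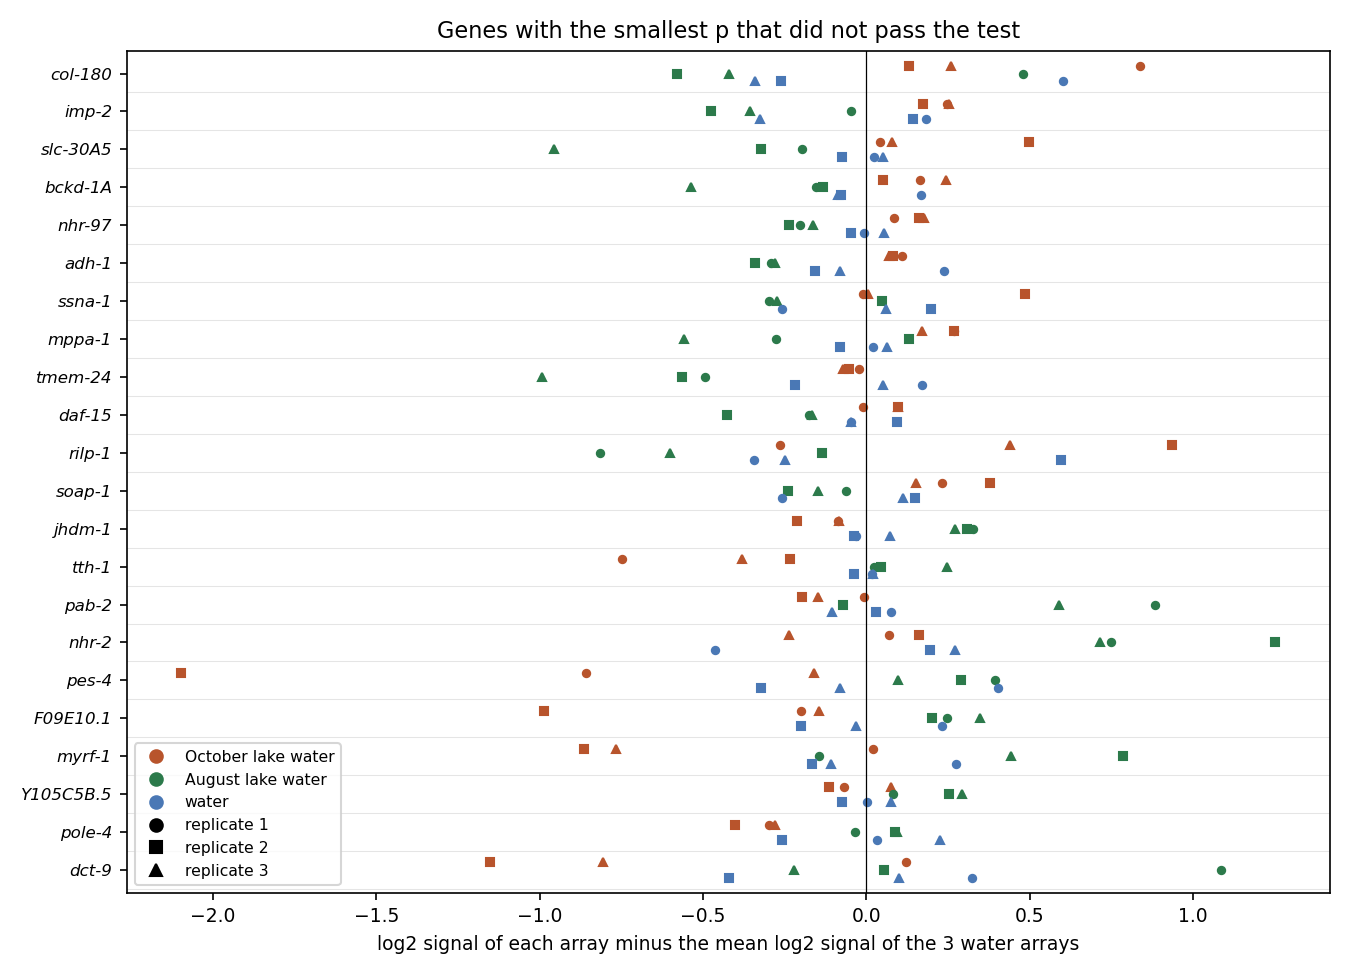
Log2 signal of each array minus the mean log2 signal of the 3 water arrays, for the 22 named genes with the smallest p that did not pass, 12 with positive and 10 with negative changes; colours give the group and shapes the replicate number. For jhdm-1 the October arrays lie below and the August arrays above the water arrays, for adh-1 the October arrays lie within the range of the water arrays and the August arrays below it, and the replicates of genes such as pes-4 and myrf-1 are widely spread.

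The estimates of 2-fold or more other than that of cyp-33A1 came from dim probe sets, and most had unequal replicates. The zinc finger gene ztf-13 had 137, 134 and 145 in October worms and 25.3, 50.3 and 103 in August worms, with a log2 change of 1.45 ± 0.55. The embryonic gene pes-4 had 44.2, 18.7 and 71.7 in October worms and 105, 97.9 and 85.6 in August worms, with a log2 change of -1.30 ± 0.35. The small heat shock gene hsp-16.2, a marker of heat and protein damage, had 743, 60.03 and 42.1 in October worms and 142, 21.3 and 70.1 in August worms. Replicate 1 of both groups was the highest for hsp-16.2, and its pairs gave 2.38, 1.5 and -0.74 around an estimate of 1.05 ± 0.70. sfxn-1.2, W03D8.2 and clx-1 had 1.10 ± 0.31, 1.14 ± 0.36 and -1.23 ± 0.49, and the remaining probe set of 2-fold or more has no single gene symbol. 0 of these passed, with adjusted p of 0.952 or 0.982 in limma.

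Genes that led the comparisons of either lake water with plain water were then read in the direct comparison. They were picked with the same October and August arrays, so their place beside water and between the months is partly set by that choice. Of these 10 genes, cyp-33A1 and fat-7 differed between the months and 8 did not pass. drd-10 had signals of 447, 447 and 339 in October worms and 324, 182 and 278 in August worms, with a log2 change of 0.68 ± 0.20 and an adjusted p of 0.952. All October arrays were above all August arrays, and both groups were above the 3 water arrays except that the August array of replicate 2, at 182, was below the highest water array, at 196. The antimicrobial peptide gene cnc-2 had 194, 199 and 177 in October worms and 138, 153 and 136 in August worms, and 70.6, 125 and 90.8 with water. The lysozyme gene lys-10 had 127, 158 and 179.9 in October worms and 106, 120.0 and 119 in August worms, and 78.2, 68.5 and 82.5 with water. For cnc-2 and lys-10 the 3 groups did not overlap and October was highest, yet the October minus August change was 0.42 ± 0.18 and 0.42 ± 0.19, with an adjusted p of 0.982 for each in limma. The list of the pud genes and warf-1 had 3 tested, 0 past the test, 2 positive and a median of 0.17. The UDP-glucuronosyltransferase ugt-2 had 348, 326 and 393 in October worms and 350.2, 365 and 376 in August worms, with a log2 change of -0.04 ± 0.22. ugt-62, irg-5 and warf-1 had -0.10 ± 0.07, -0.14 ± 0.10 and -0.18 ± 0.12. The October minus water and August minus water contrasts share the water arrays, so no correlation or overlap between them is given.

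Gene lists for the other steps of detoxification had 0 members past the test. UDP-glucuronosyltransferases had 44 tested genes, 20 positive and a median log2 change of -0.04. The lowest p in that list was for ugt-9, with 91.4, 87 and 59.4 in October worms and 132, 109 and 101 in August worms, and a log2 change of -0.54 ± 0.17. Glutathione S-transferases had 27 tested, 13 positive and a median of -0.03. gst-4, a reporter of the oxidative stress response, had 1429, 1087 and 1413 in October worms and 1412, 1039.8 and 1052 in August worms, with a log2 change of 0.17 ± 0.09. ABC transporters had 40 tested, 20 positive and a median of 0.02, and short-chain dehydrogenases 27 tested, 13 positive and a median of -0.01. In these 4 lists the counts of positive estimates lay near the 51.2% of all genes.

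Immunity and digestion lists likewise had 0 members past the test. C-type lectins, sugar-binding proteins of which many are induced by infection, had 77 tested genes, 39 positive and a median of 0.00. Lysozymes, which cleave bacterial walls, had 9 tested genes, and 9 of 9 estimates were positive with a median of 0.03, but only 5 were positive when arrays were set to the same median. Antimicrobial and saposin-like peptides had 30 tested, 19 positive and a median of 0.08, and infection response genes 15 tested, 7 positive and a median of -0.01. Gut proteases had 17 tested, 3 positive and a median of -0.05, with 8 positive after quantile normalization and 12 positive without replicate 1. The cathepsin L gene cpl-1 had 9800.1, 8917 and 9363 in October worms and 10575, 11268 and 11503 in August worms, with a log2 change of -0.25 ± 0.11 and an adjusted p of 0.982.

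No reproductive gene passed the test. Sperm genes had 67 tested, 0 past the test, 54 positive and a median of 0.09, and 7 had an unadjusted p under 0.05 on the positive side, where 2.94% of all genes did, and 0 on the negative side, where 1.46% did. The pair medians of the sperm list were -0.03, 0.14 and 0.29, and without replicate 3 the median was 0.00 with 33 positive, and pair 1 was the one with a negative median. spe-4, a presenilin of sperm organelles, read 309, 184 and 210.2 in October worms and 263, 123 and 143 in August worms, with a log2 change of 0.46 ± 0.13. The summed signal of the 67 sperm genes was 296497 to 383462 in October worms and 266264 to 381108 in August worms, so the groups overlapped. Oocyte and eggshell genes had 33 tested, 13 positive and a median of -0.02, and germline and meiosis genes 39 tested, 16 positive and a median of -0.01. Vitellogenins, the yolk proteins made by the gut, and their receptor had 6 tested, 0 positive and a median of -0.13. vit-6 had 22337, 18663 and 22093 in October worms and 23723, 25887 and 22308 in August worms, with a log2 change of -0.19 ± 0.11.

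Cytosolic ribosomal protein genes were all on the negative side in the signals as deposited, and 16 of 75 were positive after quantile normalization. Of 75 tested, 0 passed, 0 were positive, 53 were lower in 3 of 3 pairs and 41 had all October arrays below all August arrays, where 7.55% of probe sets did not overlap in either direction. The median was -0.12. rpl-4 had 14786, 13740.0 and 14471 in October worms and 16462, 16531 and 15999 in August worms, with a log2 change of -0.19 ± 0.07 and an adjusted p of 0.982 in limma. A shift of the same sign was also seen in other bright probe sets, and its cause was not tested. Among the 173 other genes with a mean log2 signal of 13 or more, 144 (83.2%) were also negative, with a median of -0.09, and among the 4071 genes with a mean log2 signal under 8, 43.4% were negative, with a median of 0.03. After quantile normalization the ribosomal median was -0.03, with 16 of 75 positive. The median of those 173 bright genes was then -0.01, with 100 negative, and the vitellogenin median was -0.03.

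Cuticle genes, markers of the epidermis and of the molting stage, had 0 members past the test. Cuticle collagens had 107 tested, 71 positive and a median of 0.07, with pair medians of -0.05, 0.08 and 0.16, and without replicate 3 the median was 0.00. Molting and apical matrix genes had 81 tested, 53 positive and a median of 0.07, with pair medians of 0.00, 0.15 and 0.03. The collagen col-97 had 1257, 856 and 975 in October worms and 1143, 688 and 498 in August worms, with a log2 change of 0.47 ± 0.14. The hedgehog-related gene wrt-6 had 0.41 ± 0.17 and the patched-related gene ptr-24 had 0.21 ± 0.09. Summed signal of the 107 collagen genes was 432934 to 486410 in October worms and 430915 to 510847 in August worms. Pair 1 had the lowest median in the collagen and sperm lists.

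Genes of nerve, muscle and signalling had 0 members past the test. Neuropeptides had 60 tested, 35 positive and a median of 0.04, with 0.46 ± 0.16 for nlp-26 and -0.38 ± 0.13 for flp-13. Muscle structure genes had 47 tested, 28 positive and a median of 0.01, with 0.47 ± 0.18 for the vinculin deb-1, which anchors the contractile lattice, and 0.37 ± 0.14 for the PINCH homolog unc-97 of the same attachments. Insulin-like peptides, ligands of the daf-2 receptor, had 16 tested, 13 positive and a median of 0.10, where 51.2% of all genes were positive. The list was dim, with a median log2 signal of 6.35 against a filter at 5.86. Of all genes under a log2 signal of 8, 43.4% were negative. With the filter at the 60th percentile, which kept fewer genes, the median of the list was 0.01. ins-34 had 171, 166 and 247 in October worms and 135, 128 and 136 in August worms, with a log2 change of 0.53 ± 0.20 and an adjusted p of 0.982 in limma. Nuclear hormone receptors had 107 tested, 58 positive and a median of 0.02. Summed signals of the neuropeptide, muscle and intestinal gene lists overlapped between the groups, at 21722 to 22616, 163851 to 178702 and 23476 to 25456 in October worms, and at 20272 to 24209, 158590 to 181254 and 20817 to 26201 in August worms.

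Stress and housekeeping lists had 0 members past the test. Small heat shock proteins had 8 tested, 4 positive and a median of 0.02, with 0.29 ± 0.15 for hsp-17 and -0.35 ± 0.22 for hsp-12.1. Chaperones of the HSP70, HSP90 and HSP60 families had 38 tested, 18 positive and a median of -0.01. Superoxide dismutases, catalases and thiol redox enzymes had 22 tested, 11 positive and a median of 0.00, with -0.21 ± 0.09 for the catalase ctl-2 and 0.42 ± 0.19 for the thioredoxin reductase trxr-2. Metal handling genes had 26 tested, 14 positive and a median of 0.01, and aquaporins and glycerol synthesis genes 15 tested, 6 positive and a median of -0.02. Proteasome subunits had 33 tested, 6 positive and a median of -0.06, respiratory chain genes 63 tested, 24 positive and a median of -0.03, and mitochondrial ribosomal proteins 57 tested, 26 positive and a median of -0.01. Methionine cycle genes had 14 tested, 6 positive and a median of -0.04, with -0.22 ± 0.10 for the S-adenosylmethionine synthetase sams-4. The medians of these 9 lists all lay within 0.06 of 0.

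**Figure D5:**
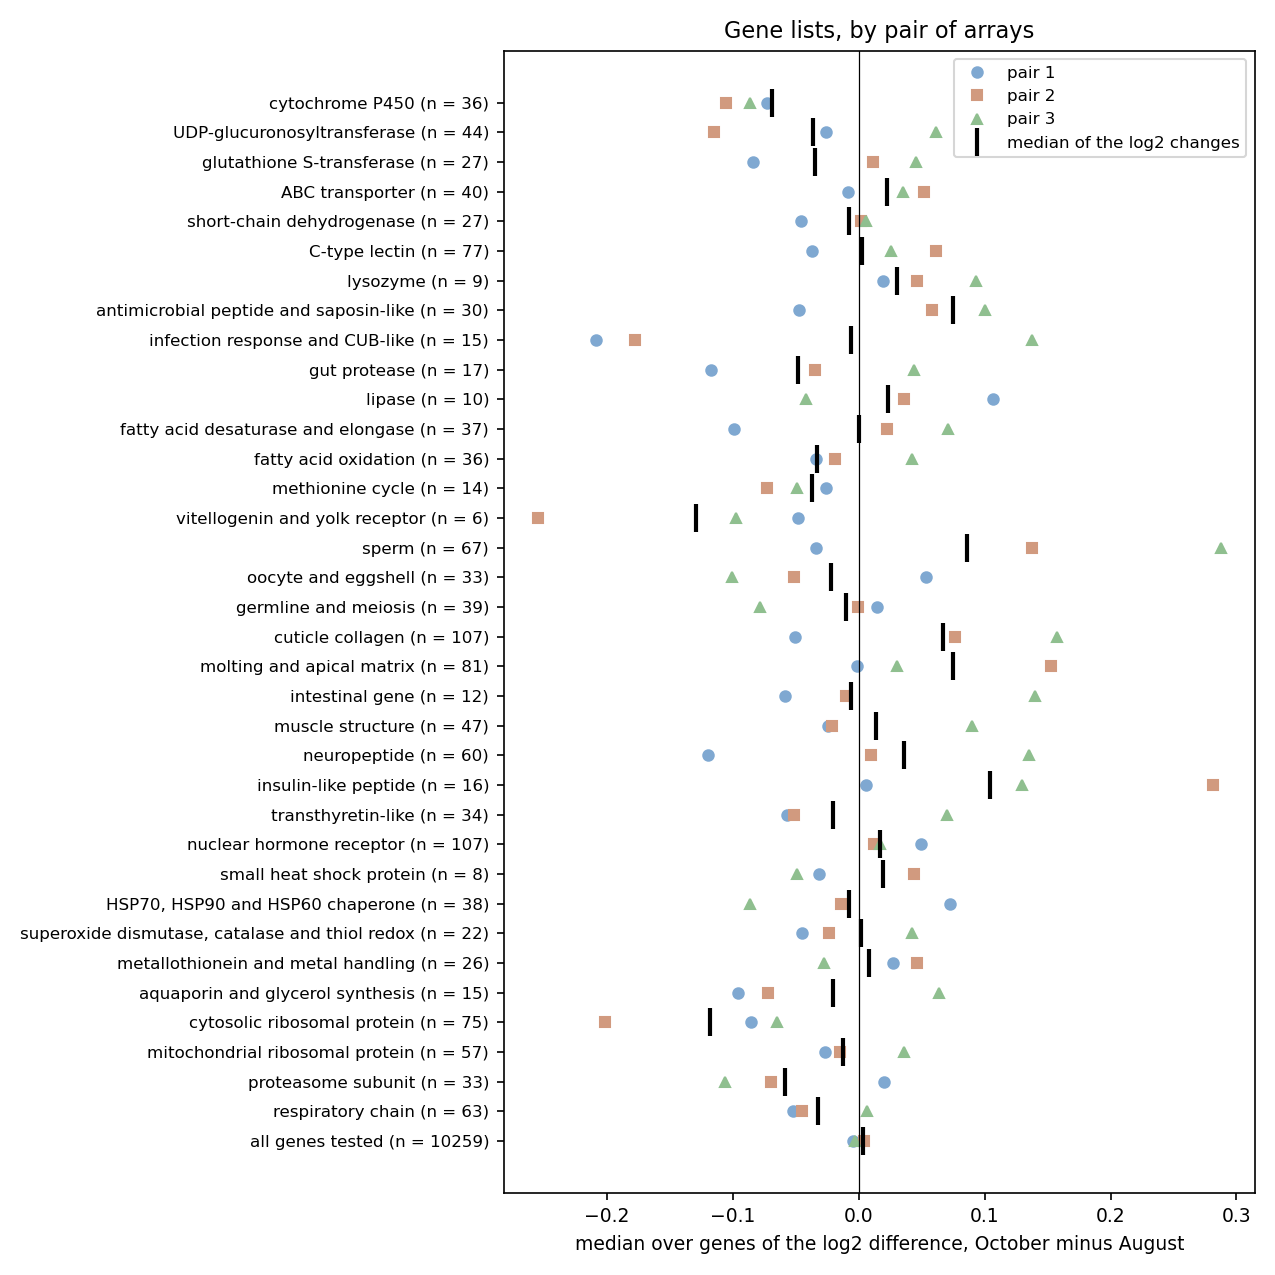
Median over the genes of each of 35 lists of the log2 difference, October minus August, for each of the 3 pairs of arrays (coloured symbols) and for the estimates (black ticks), with the number of genes in brackets. The pairs of most lists lie on both sides of 0, those of the cytosolic ribosomal protein, vitellogenin, methionine cycle and P450 lists all lie below 0, those of the lysozyme, insulin-like peptide and nuclear hormone receptor lists all lie above 0, and the ticks run from -0.13 to 0.10, against 0.00 for all 10259 genes.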

How the data were processed

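Total RNA of whole worms was labelled with biotin and measured on 15 single-channel arrays, 3 per group. The authors deposited linear probe set signal intensity, for which the submitters' processing notes name Affymetrix Expression Console 1.2.0.20 and MAS5, and the 2% trimmed mean of each array lay between 500.123 and 500.137. The deposited table holds 22625 probe sets on 15 arrays and no detection calls, and scanner files were not used here. The number of arrays limits the precision.

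Log2 values were used without an added offset. After removal of 77 control probe sets, 22548 were left. Those averaging at least 5.86 on the log2 scale (57.9 in linear signal), the 40th percentile, numbered 13529 and were tested. Symbols came from the platform annotation and the WBcel235 RefSeq gene table: 20766 probe sets had 1 symbol, of which 20701 matched, 887 had several and 895 had none. Coordinates are not printed.

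All 15 arrays entered 1 model (limma 3.58.1, R 4.3.3, eBayes with the trend option) with a mean per group and replicate number as a block, which left 8 residual degrees of freedom. P values were adjusted by Benjamini-Hochberg and called under 0.05. Deviations of same-numbered October and August arrays from their group means correlated at 0.46, 0.21 and 0.23, and those of other numbers at -0.31 to 0.15. Between replicates 2 and 3 they correlated at 0.10 and 0.15. Deviations from a mean of 3 arrays sum to 0, so positive values for equal numbers bring negative ones among the others. The labels give only the number. Errors of log2 changes are standard errors of the model, and intervals cover 95%. An exact permutation test cannot go below p = 0.1 for 3 arrays against 3 and was not used.

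Lists were described, not tested, with the brightest probe set per gene (10259 genes). The members, the 36 lists and 2 added lists were chosen with earlier results of these data known. Named genes were the 12 largest rises and 12 largest falls past the test, filled by the smallest p, list members past the test or else the 1 or 2 with the smallest p, 10 genes that led the lake comparisons with water, and the cyp-33 subfamily. Desaturases, probe sets of 2-fold or more, cyp-25A1 and cyp-29A4 were named after their values were seen. Several named genes have further tested probe sets, whose values are given only for jhdm-1 and tth-1. Alternatives covered the block, the arrays in the fit, scaling, offset, filter, variance model and arrays left out.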

Additional observations from a re-analysis of the deposited data

Results flagged for a closer look

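The effects of the October and August lake water, each against plain water, differed for 2 genes by the test of the difference itself. For cyp-33A1 the October minus August log2 change was -3.38, with effects against water of -0.07 ± 0.12 in October worms and 3.31 ± 0.12 in August worms, and the sign held in 3 of 3 pairs. For fat-7 the change was -0.81, with effects against water of -0.08 ± 0.09 in October worms and 0.73 ± 0.09 in August worms, also in 3 of 3 pairs. The pairs are the same arrays that the test used, so their signs add no separate support. In both genes the effects of the 2 months share the water arrays.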

How the results depend on the processing

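cyp-33A1 passed in all 19 alternative settings run, with a log2 change of -3.49 to -3.26 and adjusted p of 5.07e-11 to 5.16e-06 in limma. fat-7 passed in all of them except without replicate 2, where it was -0.82 (adjusted p = 0.0843); with arrays left out in turn it ranged over -0.88 to -0.74, and over all settings its adjusted p ranged from 0.000646 to 0.0843. With no replicate block the count of probe sets past the test was 2, the same genes as with the pairing, and the block changed no other call. The count was 2 to 6 with arrays left out, at 5 without replicate 1 and 6 without the August array of replicate 1, where cyp-33A1 and fat-7 remained and pup-2 (-0.66, adjusted p = 0.0414), eps-8 (0.67) and tep-1 (1.14) were among those added; the cause was not tested. Without the filter it was 3, with Y71H2B.8 added at signals of 2.18 in October worms and 20.3 in August worms, both under the filter. Without replicate 2 pab-2 passed in place of fat-7, without the August array of replicate 2 it passed beside both genes, and without replicate 3 cbd-1 (0.85) was added. In the other 13 settings the same 2 genes and no others passed, both lower in October. Of the list medians, 681 moved by less than the SD between pairs and 41 by more. Of 86 named genes, 6 turned sign, none past the test in any setting: with arrays left out nhr-80 ranged over -0.356 to 0.110, fat-1 over -0.103 to 0.0178, mdt-15 over -0.0819 to 0.0811, emb-8 over -0.0517 to 0.0271, ugt-2 over -0.148 to 0.0732 and fat-4 over -0.0908 to 0.0838, and fat-4 was also 0.0229 after quantile normalization. The median of all genes was 0.00 as deposited, -0.01 after quantile normalization and -0.02 with equal medians. Without detection calls, how far dim probe sets lie above background is not known.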

Other observations

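Among the 13529 probe sets tested, those whose 3 arrays of a group lay above or below all 12 other arrays were counted as a description. The genes named below were picked by this same placement, which is no test of them. October had 15 above and 6 below, August 24 above and 14 below, the culture 206 above and 488 below, Z-medium 24 above and 15 below, and water 23 above and 23 below. Of the 5 groups October had the fewest, and the August counts lay near those of the Z-medium controls. Among those above in October were cnc-2, by 0.21 log2 units, lys-10, by 0.08, and drd-10, by 0.07, and below were tth-1, by 0.18, jhdm-1, by 0.05, and hmgr-1, the hydroxymethylglutaryl-CoA reductase of the mevalonate pathway, by 0.03. hmgr-1 had signals of 562, 541 and 552 in October worms and 604, 572 and 648 in August worms, with a log2 change of -0.14 ± 0.10 and an adjusted p of 0.982 in limma. Among those above in August were cyp-33A1, by 3.09, scrm-4, by 0.22, and fat-7, by 0.13, and below were adh-1, by 0.12, and the acyl-CoA synthetase acs-21, by 0.08.

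The genes that flank cyp-33A1 and fat-7 were read in the WBcel235 gene order. Of 6 protein-coding genes flanking cyp-33A1, taken equally from both sides, 5 were on the array and 2 had enough signal to be tested. These were nssp-54 at 0.27 ± 0.22 and nhr-152 at 0.39 ± 0.28, both with positive estimates that did not pass. Both were dim, with mean signals of 73.2 and 82.0 in October worms and 60.5 and 62.4 in August worms, against a filter at 57.9. Of 6 protein-coding genes flanking fat-7, taken in the same way, 6 were on the array and 2 were tested, F10D2.10 at -0.17 ± 0.20 and ugt-39 at -0.05 ± 0.12, and 0 passed.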
